A study of Saccharomyces cerevisiae with 6 samples.

Results

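The genes described here are those nearest the ends of the 32 chromosome arms of budding yeast. On each arm the 8 open reading frames (ORFs) whose systematic numbers lie farthest from the centromere were taken, 256 in all. From these, 36 were left out because their name in the array file belongs to a multigene family such as COS, PAU, HXT or PHO. The remaining 220 ORFs, 4 to 8 on an arm, are called chromosome-end genes below, of 6256 gene probes on the array. The rule uses no measured value, though it was set with earlier results of these data known.

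Expression was measured on 6 two-colour oligonucleotide arrays, each of which carried RNA of 1 mutant and of WT, the strain with wild-type MOT1. Every strain was the parent AY138 with a plasmid, taken after selection on FOA, a drug that kills cells still holding a URA3 plasmid. WT carried pAV20, the mot1-14 mutant pMOT244, and the bypass strains pTBP-Y185C or pTBP-F207L, and all grew in rich YPD medium (30 °C) until the OD600 was 1.0. Each mutant had 2 arrays with the dyes exchanged, and the labels do not say whether these came from separate cultures, so p-values measure a spread that may be technical. Each mutant was compared with WT, and the mutants were compared with each other.

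Mot1 uses ATP to strip TBP, the protein that binds TATA boxes, off DNA, and the bypass strains carry a TBP variant that lets cells live without Mot1. Yeast chromosome ends hold the telomere repeats and then subtelomeric DNA, which is shared between arms and rich in gene families for sugar use, cell surface proteins and stress. Genes there can be silenced by Sir proteins that spread from the telomere with the help of Rap1, and several subtelomeric Y′ elements encode a helicase. Of the 220 chromosome-end genes, 153 (69.5%) have an unknown molecular function in the array's annotation, against 52.4% of all probes. The reference gene table listed 180 of them as protein coding and 4 as pseudogenes, and 36 were not in it.

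The strains were checked by their own alleles. MOT1 was at a log2 mutant over WT of 2.17 ± 0.30 SE (mot1-14), -3.51 ± 0.30 (TBP-Y185C) and -2.58 ± 0.30 (TBP-F207L). SPT15, the TBP gene, was at -0.36 ± 0.10, 4.08 ± 0.10 and 3.63 ± 0.10. Median red signal was 8.05 to 22.7 times and median green signal 6.74 to 10.8 times the local background. The 2 arrays of a mutant correlated across genes at r = 0.93, 0.96 and 0.94 once turned to mutant over WT. Of the chromosome-end genes 219 were tested in the bypass strains and 211 in mot1-14, since 1 was below background throughout and 8 more lacked a value on the first mot1-14 array. At least 1 strain was not well above background for 7 (mot1-14), 5 (TBP-Y185C) and 1 (TBP-F207L) of them.

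In mot1-14 the chromosome-end genes were more often higher than lower. Of the 211 tested, 105 (49.8%) were higher than WT and 23 (10.9%) were lower, against 37.5% and 35.2% of all genes tested. A gene passed when its adjusted p in one limma model over the 6 arrays was under 0.05. The bypass strains were less one-sided. In TBP-Y185C 91 of 219 (41.6%) were higher and 63 (28.8%) lower, against 41.0% and 38.8% of all genes. In TBP-F207L 93 (42.5%) were higher and 63 (28.8%) lower, against 40.3% and 38.8%. Arrays compare equal amounts of RNA from whole cultures, so a change in the share of cells making a transcript and a change in RNA per cell cannot be told apart.

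The shift in mot1-14 was small for most of these genes. The median log2 ratio of the chromosome-end genes was 0.09 (mot1-14), 0.03 (TBP-Y185C) and 0.01 (TBP-F207L), beside -0.00, -0.01 and -0.00 over all genes. On single arrays it was 0.09 and 0.12 on the mot1-14 arrays, 0.04 and 0.02 on those of TBP-Y185C and 0.04 and -0.01 on those of TBP-F207L. The median size of change was 0.16, 0.20 and 0.18 against 0.23, 0.29 and 0.28 over all genes. The mutants share WT as the control, so that their values are not independent of each other.

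With median centring in place of loess, the share of calls that were higher stayed at 80.6% in mot1-14 (82.0% with loess) but went from 59.1% to 48.7% in TBP-Y185C and from 59.6% to 44.97% in TBP-F207L. Without the second TBP-Y185C array 41 chromosome-end genes were lower there, and without a dye term 33.

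**Figure D1:**
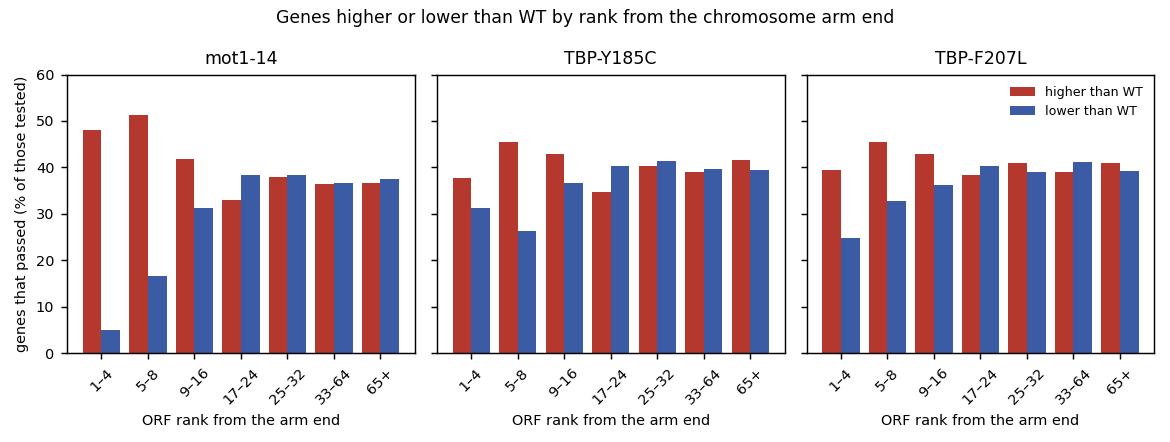
Share of tested genes that passed as higher (red) or lower (blue) than WT, in percent on the vertical axis, by ORF rank from the arm end on the horizontal axis, with the same families left out at every rank. Bars are shares over genes. In mot1-14 the lower share is 4.9% at ranks 1 to 4 and 37.4% from rank 65 on.

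In mot1-14 the share of lower genes was smallest in the band at the arm ends. At ranks 1 to 4 from the arm end 49 of 102 genes were higher and 5 (4.9%) were lower. At ranks 5 to 8 56 of 109 were higher and 18 (16.5%) were lower. At ranks 9 to 16, outside the chromosome-end genes, 41.9% of 234 were higher and 31.2% lower. At ranks 17 to 24 33.1% were higher and 38.4% lower, close to the 36.6% and 37.4% from rank 65 on. In the bypass strains the lower share at ranks 1 to 4 was 31.2% in TBP-Y185C and 24.8% in TBP-F207L. Single ranks did not follow the bands in order. In mot1-14 10 of 26 outermost ORFs were higher and 2 lower (median log2 0.02), while at rank 5 19 of 28 were higher and 2 lower (median 0.22). The mot1-14 median was 0.07 over ranks 1 to 4 and 0.11 over ranks 5 to 8. Differences between these bands and ranks were not tested, since genes are not replicates of a condition.

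The imbalance was found on most arms. In mot1-14 28 of 32 arms had more higher than lower members, 1 arm, the right arm of chromosome VI, had more lower ones, and 17 arms had no lower member. In TBP-Y185C 19 arms had more higher and 9 more lower members, and in TBP-F207L 18 and 8. Changes of 2-fold or more were found at ranks 1 to 4 for 3 of 102 genes in mot1-14 (2.94%) and at ranks 5 to 8 for 8 of 109 (7.34%). The share was 8.55% at ranks 9 to 16, 4.08% at ranks 17 to 24 and 4.31% from rank 65 on. Over all genes 4.49% rose and 0.588% fell by that much in mot1-14.

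**Figure D2:**
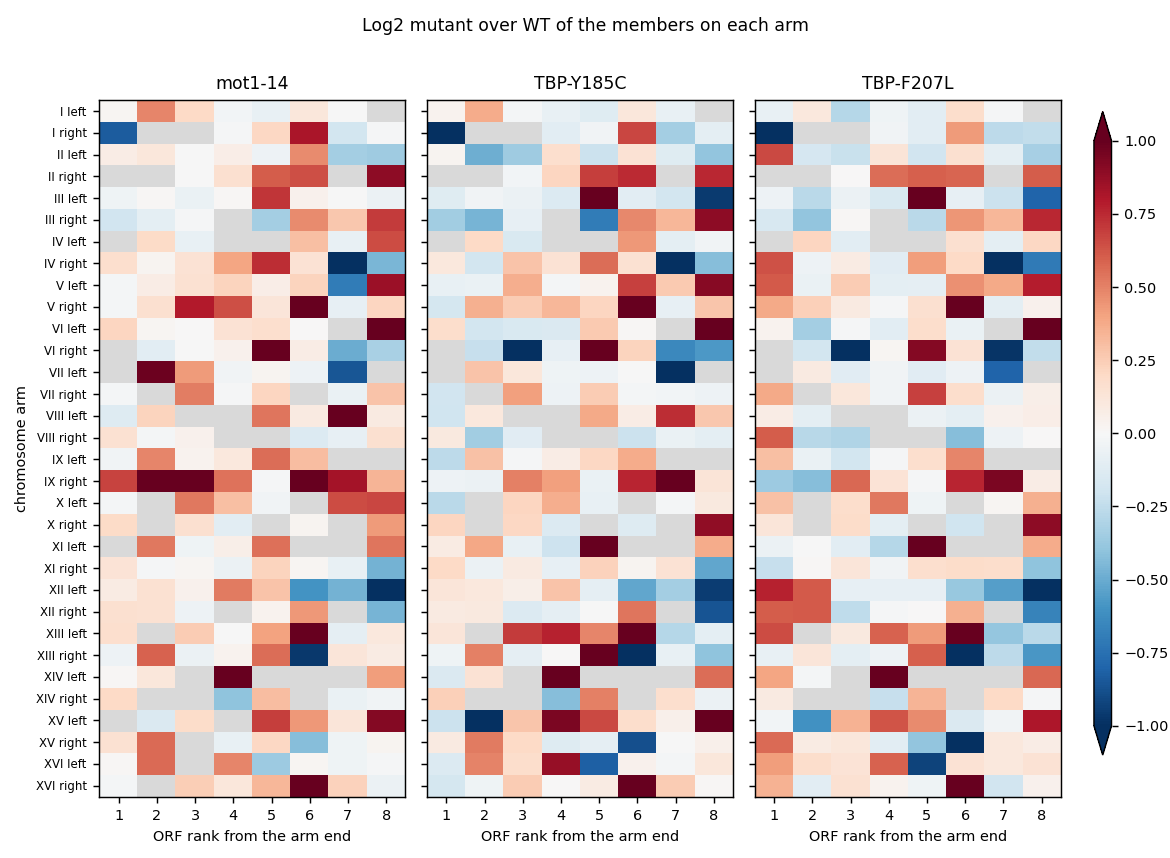
Log2 mutant over WT of each chromosome-end gene (colour, limited to -1 and 1), by chromosome arm (rows) and ORF rank from the arm end (columns). Grey cells are left-out families or genes not tested. The outermost column is mostly pale in mot1-14 and TBP-Y185C and mostly red in TBP-F207L, where 17 of 28 outermost ORFs were higher than WT.

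Signal strength moved with the result. The median log2 level of the chromosome-end genes was 7.44 against 8.52 over all genes tested, and 119 of 219 (54.3%) fell into the dimmest of 4 equal groups of genes ordered by signal. Within that group 46 of 113 chromosome-end genes (40.7%) were higher in mot1-14 and 8 (7.08%) were lower, while 22.9% of the other genes were higher and 24.98% lower. In the next 2 groups 58.3% and 82.1% of chromosome-end genes were higher in mot1-14 and 19.4% and 10.7% lower. The other genes there were higher in 36.5% and 44.5% and lower in 39.4% and 39.3%. In the brightest group 15 of 34 (44.1%) were higher and 5 (14.7%) lower, while 43.4% of the other genes were higher and 39.8% lower. The higher share in that group was close to that of the other genes. The lower share was thus below that of the other genes in all 4 groups in mot1-14. The part of dim signal in the small changes was not tested.

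**Figure D3:**
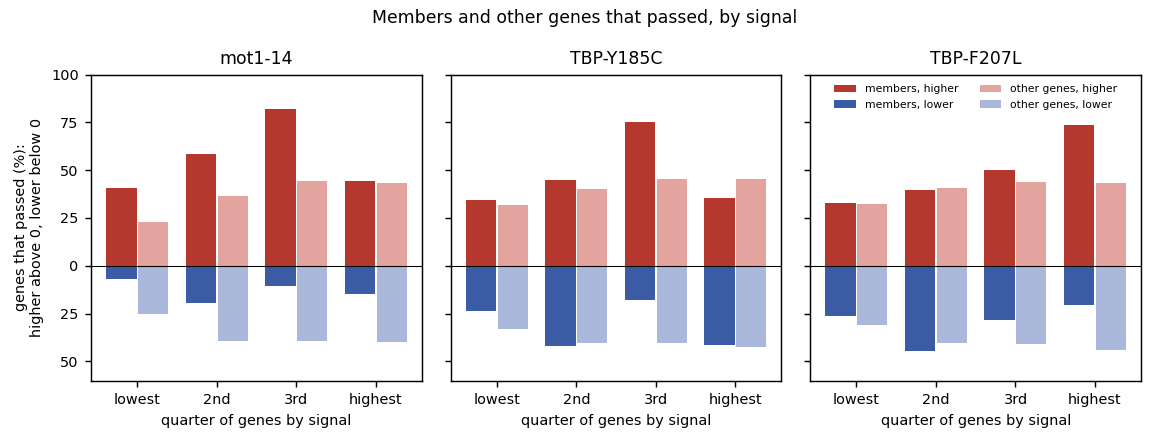
Share of chromosome-end genes (dark) and of other genes (pale) that passed as higher (above 0) or lower (below 0) than WT, in percent, by 4 equal groups of all tested genes ordered by mean signal. In mot1-14 the lower bar of chromosome-end genes is shorter than that of other genes in all 4 groups, for example 7.08% against 24.98% in the dimmest. The higher bars of the brightest group in mot1-14 are close, at 44.1% and 43.4%.

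ORFs that the reference gene table lacks passed less often in all 3 mutants. Of the 36 such ORFs, whose median log2 level was 6.68 against 7.68 for the 184 others, the shares of tested ORFs that did not pass were 72.7% (mot1-14), 50% (TBP-Y185C) and 55.6% (TBP-F207L). For the 184 in the table these shares were 33.1%, 25.7% and 23.5%, and over all genes tested they were 27.2%, 20.3% and 20.9%. YAR075W, the outermost ORF of the right arm of chromosome I, had the lowest value in TBP-F207L of all chromosome-end genes. Its log2 ratios were -0.90 and -0.77 on the mot1-14 arrays, -1.52 and -1.48 on the TBP-Y185C arrays and -1.57 and -2.10 on the TBP-F207L arrays, lower than WT on all 6. The fitted changes were -0.84 ± 0.10, -1.50 ± 0.10 and -1.84 ± 0.10 (adjusted p = 0.000241, 8.78e-06 and 3.8e-06). It lies beside IMD1, an IMP dehydrogenase gene of a family that was left out. IMD1 itself was at -0.95, -0.87 and -1.41 and IMD2 at -1.07, -1.56 and -1.74, and a probe for one such sequence may read RNA of another.

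The outermost ORFs of the arms were often higher in TBP-F207L. All 7 YRF1 genes among them were higher than WT, and of the 21 others tested 10 were higher and 4 lower. The shares over all genes were 40.3% higher and 38.8% lower. Of the 26 outermost ORFs with all 3 mutants measured, 15 (57.7%) were higher in TBP-F207L than in both mot1-14 and TBP-Y185C, against 21 of 211 chromosome-end genes (9.95%) and 9.24% of all genes. Their log2 ratios in TBP-F207L ran from 0.29 to 0.77 with a median of 0.56. Of these 15, 7 are YRF1 genes, which encode the Y′ helicases, and YPR204W is marked as a DNA helicase in the array's annotation. The other 7, among them YLL067C, YBL113C, YEL077C and YML133C, have no function in it. Subtelomeric DNA such as Y′ elements is shared between arms, so the probes of these 15 may read each other's RNA. The 15 thus cannot count as separate measurements, and the part of arm position in their rise was not tested.

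All 8 YRF1 genes rose in TBP-F207L, where 40.3% of all genes were higher and 38.8% lower. Those shares were 37.5% and 35.2% in mot1-14 and 41.0% and 38.8% in TBP-Y185C. YRF1-1 gave log2 ratios of 0.07 and 0.26 on the mot1-14 arrays, 0.12 and 0.10 on the TBP-Y185C arrays and 0.60 and 0.68 on the TBP-F207L arrays. YRF1-3 gave -0.14 and 0.11, then -0.23 and -0.15, then 0.28 and 0.48. In both genes the TBP-F207L arrays lay above the other 4. Fitted changes of the 8 genes in TBP-F207L were 0.38 to 0.64 with a median of 0.49. In mot1-14 4 were higher and none lower, with a median of 0.08. Without the second mot1-14 array, without the dye term or with median centring 0 of the 8 passed there. In TBP-Y185C 1 was higher and 4 were lower, with a median of -0.02. With median centring, or without the second TBP-Y185C array, 4 were higher and 0 lower there, and without the dye term 0 passed in either direction. The difference between TBP-F207L and mot1-14 passed for all 8 (median 0.41), as did that between TBP-F207L and TBP-Y185C (median 0.53). Of all genes, 29.0% were higher in TBP-F207L than in mot1-14 and 15.4% higher than in TBP-Y185C. Without the dye term 7 of 8 and 2 of 8 of these differences passed.

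The YRF1 genes formed 2 sets of values. YRF1-1, YRF1-4, YRF1-5 and YRF1-8 were at 0.56 to 0.64 in TBP-F207L, and YRF1-2, YRF1-3, YRF1-6 and YRF1-7 at 0.38 to 0.42. These genes are near-identical copies, so their probes may read each other's RNA and cannot count as 8 separate measurements. YRF1-4 and YRF1-5, neighbours on the right arm of chromosome XII, were at 0.61 each. YLL067C, outermost on the left arm of XII, was highest at 0.77 ± 0.04 in TBP-F207L, beside 0.08 ± 0.04 in mot1-14 and 0.12 ± 0.04 in TBP-Y185C. Its arrays read 0.57 and 0.97 in TBP-F207L against -0.13 to 0.30 in the other mutants.

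**Figure D4:**
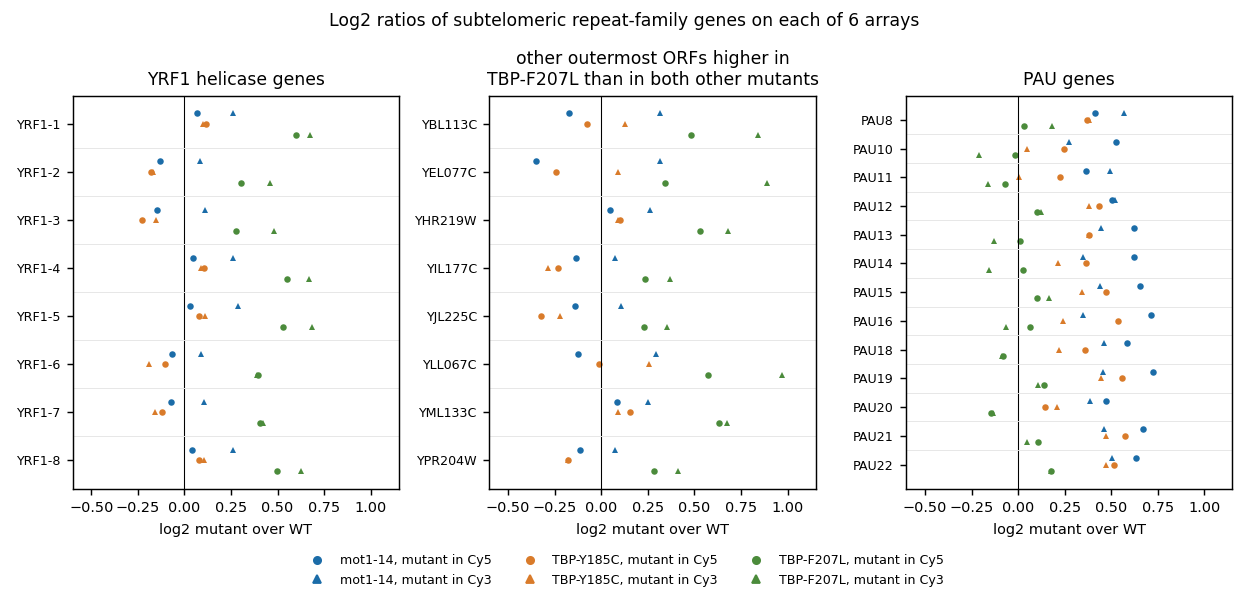
Log2 mutant over WT (horizontal axis) on each of the 6 arrays for the 8 YRF1 genes (left), the 8 other outermost ORFs that were higher in TBP-F207L than in both other mutants (middle) and the 13 PAU genes (right). Circles have the mutant in Cy5 and triangles in Cy3. For YRF1-1 the TBP-F207L points lie at 0.60 and 0.68, and for PAU19 the mot1-14 points lie at 0.72 and 0.46.

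Outermost ORFs outside these 15 moved less in common. AAD3, a putative aryl-alcohol dehydrogenase at the right end of chromosome III, was at -0.19, -0.35 and -0.16 and passed in all 3 mutants. YJR162C was at 0.19, 0.21 and 0.12, and YNR077C at 0.20, 0.24 and 0.09, both also passing in all 3. GEX2, a glutathione exchanger at the right end of XI, was at 0.14 in mot1-14 and 0.20 in TBP-Y185C and at -0.23 in TBP-F207L, and each of these passed, but with median centring it was at -0.10 in TBP-Y185C.

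PAU genes encode small cell wall mannoproteins of the seripauperin family that are induced in anaerobic cells. The rule left out PAU names only where the array file gives them, and 13 members that the file lists by systematic name have a PAU symbol today. All 13 rose in mot1-14, by 0.40 to 0.59 with a median of 0.52. In TBP-Y185C 12 rose (median 0.38), and in TBP-F207L 5 rose and 2 fell (median -0.00). The shares over all genes were 37.5%, 41.0% and 40.3% higher and 35.2%, 38.8% and 38.8% lower. On single arrays the median over the 13 was 0.62 and 0.46 on the mot1-14 arrays, 0.38 and 0.35 on those of TBP-Y185C and 0.03 and -0.06 on those of TBP-F207L. All 13 were lower in TBP-F207L than in mot1-14 (median -0.51), and 12 were lower than in TBP-Y185C (median -0.32). Of all genes, 29.3% were lower in TBP-F207L than in mot1-14 and 21.8% lower than in TBP-Y185C. Without the dye term 12 of the 13 differences from mot1-14 passed and 0 of those from TBP-Y185C, of which 7 passed without the first TBP-Y185C array. The calls in TBP-F207L against WT became 4 higher and 0 lower without its first array and 0 higher and 2 lower without its second. PAU genes are close copies of each other, so that their probes may share signal. Without the PAU and YRF1 genes, 88 of 190 chromosome-end genes were higher in mot1-14 and 23 were lower, beside 37.5% and 35.2% of all genes. Their median log2 ratio there was 0.07.

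Of the single genes MSC1, named for a defect in meiotic recombination between sister chromatids, rose most in both bypass strains. Its log2 ratios were 1.87 and 2.03 on the mot1-14 arrays, 2.32 and 2.35 on those of TBP-Y185C and 2.0 and 2.26 on those of TBP-F207L, so all 6 arrays lay more than 3-fold above WT. Fitted folds were 3.86, 5.04 and 4.37. Rises of 2-fold or more were found for 9 (mot1-14), 11 (TBP-Y185C) and 6 (TBP-F207L) chromosome-end genes, beside 4.49%, 6.42% and 4.97% of all genes. Falls of that size were found for 2, 6 and 6, beside 0.588%, 1.96% and 2.34% of all genes. From the deposited log ratios the rises came to 23, 20 and 13 genes and the falls to 5, 13 and 6, and, with a background offset of 0 in place of 50, the rises came to 21, 19 and 12. Without the first TBP-F207L array 11 genes rose 2-fold or more there, and without the first TBP-Y185C array 7 did in that strain.

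PUG1, a plasma membrane protein for protoporphyrin uptake and heme export, rose in all 3 mutants. Its log2 ratios were 1.30 and 1.21, then 1.75 and 1.67, then 1.39 and 1.31, and the TBP-Y185C arrays lay above the other 4. ARR1, the activator of the arsenic resistance genes, was at 1.24 and 1.44, 1.53 and 1.5, and 0.97 and 1.14. Its neighbours on the right arm of XVI, the arsenate reductase gene ARR2 and the arsenite exporter gene ARR3, were at 0.34 ± 0.03 and 0.11 ± 0.04 in mot1-14, where both passed. In TBP-Y185C they were at 0.08 and 0.01 and in TBP-F207L at -0.05 and 0.03, without passing. Of the arsenic cluster 3 of 3 genes rose in mot1-14 and 1 of 3 in each bypass strain, beside 37.5%, 41.0% and 40.3% of all genes. Passing in mot1-14 and not in a bypass strain is not in itself a difference between the strains.

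DDI2 and DDI3, near-identical genes for cyanamide hydratases on different chromosomes, gave values alike. DDI2 was at 0.78 and 1.23 on the mot1-14 arrays, 1.38 and 1.5 on those of TBP-Y185C and 0.77 and 1.59 on those of TBP-F207L. DDI3 was at 0.78 and 1.21, 1.48 and 1.52, and 0.98 and 1.57. Both passed in all 3 mutants, with fitted folds of 2.01, 2.71 and 2.26 for DDI2. MCH2, a protein like monocarboxylate permeases, was at 0.50 and 0.61, 1.38 and 1.47, and 0.89 and 1.10. All pairs of mutants differed for it, with TBP-Y185C above mot1-14 by 0.87 ± 0.05 (adjusted p = 7.22e-05). GTT1, a glutathione transferase, rose by 0.83, 1.14 and 0.94, and CSS3 by 0.92, 1.01 and 0.81.

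**Figure D5:**
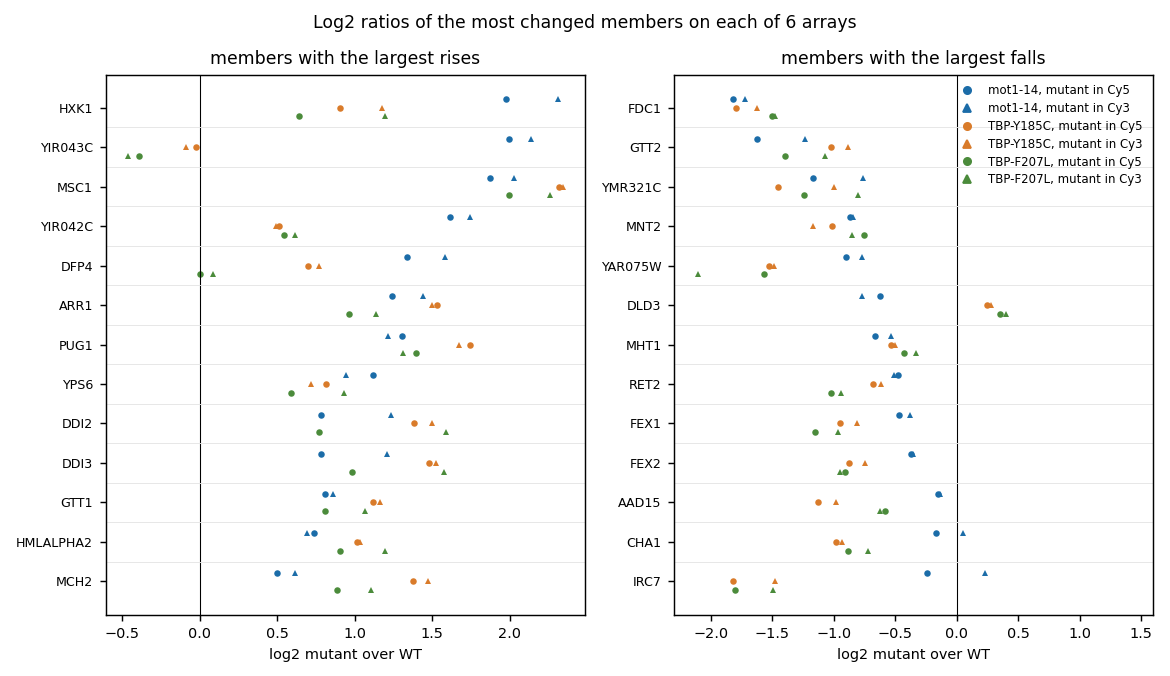
Log2 mutant over WT (horizontal axis) on each of the 6 arrays for the members with the largest rises (left) and falls (right) in any mutant, by mutant (colour) and dye orientation (circle for the mutant in Cy5, triangle in Cy3). YIR043C lies at 2.0 and 2.14 in mot1-14 and below 0 in both bypass strains, and IRC7 lies at -1.47 or below in the bypass strains and at -0.24 and 0.23 in mot1-14.

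A group of members rose in mot1-14 and stayed nearer to WT in the bypass strains. HXK1, a hexokinase gene repressed by glucose, was at 1.98 and 2.31 on the mot1-14 arrays, 0.91 and 1.18 on those of TBP-Y185C and 0.64 and 1.20 on those of TBP-F207L. Its fold was 4.42 (mot1-14), 2.06 (TBP-Y185C) and 1.89 (TBP-F207L), and mot1-14 lay above TBP-F207L by 1.23 ± 0.07 on the log2 scale (adjusted p = 3.94e-05). DFP4, a membrane protein of the DUP240 family, was at 1.34 and 1.58, then 0.70 and 0.77, then 0.00 and 0.09. The 3 mutants did not overlap for DFP4, and TBP-F207L (0.04 ± 0.04) did not pass against WT.

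Some such members lay side by side on the right arm of chromosome IX. There mot1-14 raised 7 of 8 members and lowered 0, TBP-Y185C raised 5 and lowered 0, and TBP-F207L raised 4 and lowered 2. The shares over all genes were 37.5%, 41.0% and 40.3% higher and 35.2%, 38.8% and 38.8% lower. YIR043C and YIR044C, which are neighbours, count as 2 of the 8. GTT1 is also among those raised in mot1-14, but its fitted rises, given above, were larger in the bypass strains. YIR043C was at 2.0 and 2.14 on the mot1-14 arrays, -0.02 and -0.09 on those of TBP-Y185C and -0.39 and -0.47 on those of TBP-F207L. It rose 4.19-fold in mot1-14, did not pass in TBP-Y185C (adjusted p = 0.277) and fell in TBP-F207L (adjusted p = 0.000101). YIR044C, the outermost ORF beside it, which the reference gene table lacks, was at 0.62 and 0.74, 0.03 and -0.12, and -0.26 and -0.47. The 2 probes thus had the same order of mutants and different sizes. YIR042C, next inward, was at 1.61 and 1.75, 0.51 and 0.49, and 0.54 and 0.61, higher than WT on all 6 arrays. YPS6, a cell wall aspartic protease gene, was at 1.12 and 0.95, 0.81 and 0.72, and 0.59 and 0.93, and no pair of mutants differed for it at the threshold (adjusted p = 0.0948, 0.0818 and 0.98). YIR040C, which lies between YPS6 and PAU15 and is not in the reference table, was at -0.01, -0.07 and -0.01 and passed in no mutant.

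The silent mating-type cassette HML lies near the left end of chromosome III. HMLALPHA2, which encodes the alpha2 repressor, was at 0.74 and 0.69 on the mot1-14 arrays, 1.01 and 1.04 on those of TBP-Y185C and 0.90 and 1.19 on those of TBP-F207L, and rose in all 3. HMLALPHA1, the activator gene beside it, was at 0.05, -0.11 and -0.08, with small falls that passed in the bypass strains (adjusted p = 0.0189 and 0.0495). Both genes have copies at MAT or HMR that their probes may also read. MATALPHA2 was at 0.69, 0.99 and 1.03 and HMRA2 at 0.69, 1.01 and 1.04, while MATALPHA1 was at 0.02, -0.11 and -0.10. HMRA1 was at 1.09, 1.23 and 1.27. Which locus gave the RNA cannot be read from these values. These copies, like IMD1 and IMD2 above, were named after their values were seen.

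FDC1, the ferulic acid decarboxylase gene, fell most in mot1-14. Its log2 ratios were -1.82 and -1.73 on the mot1-14 arrays, -1.79 and -1.62 on those of TBP-Y185C and -1.51 and -1.48 on those of TBP-F207L, with WT 3.42, 3.27 and 2.81 times the mutant. Its neighbour PAD1, named here as the enzyme that makes the cofactor of Fdc1, fell by 0.46, 0.42 and 0.70 on the log2 scale. GTT2, a second glutathione transferase, was at -1.63 and -1.23, -1.02 and -0.88, and -1.40 and -1.07, opposite in direction to GTT1. YMR321C was at -1.17 and -0.76, -1.45 and -1.0, and -1.24 and -0.80. MNT2, an alpha-1,3-mannosyltransferase of O-linked glycosylation, was at -0.87 and -0.84, -1.01 and -1.17, and -0.75 and -0.85. FDC1, GTT2, YMR321C and MNT2 were below WT on all 6 arrays.

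Other members were lower in the bypass strains than in mot1-14. IRC7, a beta-lyase for sulfur amino acids, was at -0.24 and 0.23 on the mot1-14 arrays, -1.82 and -1.47 on those of TBP-Y185C and -1.80 and -1.5 on those of TBP-F207L. Its difference from mot1-14 was -1.64 ± 0.06 and -1.65 ± 0.06 (adjusted p = 6.39e-06 and 5.03e-06), and the bypass strains did not differ detectably from each other (-0.00 ± 0.06). CHA1, the serine and threonine deaminase, was at -0.17 and 0.05, -0.98 and -0.93, and -0.88 and -0.72. AAD15 was at -0.16 and -0.13, -1.13 and -0.98, and -0.59 and -0.63. FEX1 and FEX2, near-identical fluoride exporter genes, were at -0.43 and -0.36 (mot1-14), -0.88 and -0.81 (TBP-Y185C) and -1.06 and -0.93 (TBP-F207L). RET2, a subunit of the COPI vesicle coat, was at -0.49, -0.65 and -0.98. CHA1 did not pass in mot1-14, while AAD15, FEX1, FEX2 and RET2 fell in all 3 mutants, and all 5 were lower in each bypass strain than in mot1-14.

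DLD3, a D-lactate dehydrogenase, went the opposite way. It was at -0.62 and -0.77 on the mot1-14 arrays, 0.25 and 0.28 on those of TBP-Y185C and 0.36 and 0.40 on those of TBP-F207L, with no overlap between mot1-14 and the others. It fell in mot1-14 (-0.70 ± 0.04) and rose in both bypass strains (0.26 ± 0.04 and 0.38 ± 0.04). ERO1, the oxidase of disulfide formation in the endoplasmic reticulum, was at -0.06 and 0.05, 0.69 and 0.86, and 0.52 and 0.66. It rose in both bypass strains and lay above mot1-14 in each (0.78 ± 0.05 and 0.59 ± 0.05, adjusted p = 7.26e-05 and 0.000107).

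Set directly against mot1-14, 22 of 211 chromosome-end genes were higher in TBP-Y185C and 60 were lower, against 26.0% and 23.8% of all genes, which makes 10.4% and 28.4% of the members. In TBP-F207L 39 (18.5%) were higher and 79 (37.4%) lower than in mot1-14, against 29.0% and 29.3%. Between the bypass strains, 31 of 219 (14.2%) were higher in TBP-F207L and 50 (22.8%) lower, against 15.4% and 21.8%. Median differences were -0.05, -0.06 and -0.03, beside -0.00, 0.00 and -0.00 over all genes. Genes lower in a bypass strain than in mot1-14 thus outnumbered those higher in both strains. All these comparisons rest on the same WT and, in pairs, on the same mutant arrays.

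The counts of these differences changed with single arrays. Without the first TBP-Y185C array the 22 became 11, without the first mot1-14 array 13 and without the second 12. Without the second mot1-14 array the 60 became 35, and without the first TBP-Y185C array the 50 became 16. DFP4, YML131W and ARR1 had the lowest differences of TBP-F207L from TBP-Y185C, at -0.69, -0.60 and -0.46. Between the bypass strains 0 members differed by 2-fold or more, beside 0.0481% of all genes higher and 0.16% lower in TBP-F207L by limma, where 31 and 50 members passed without the fold limit. With mot1-14, 1 member was at least 2-fold higher in TBP-F207L and 7 were lower, beside 0.506% and 0.996% of all genes, and 0 were higher and 4 lower in TBP-Y185C, beside 0.604% and 0.588%.

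Role lists are small, and their counts stand beside the 37.5% (mot1-14), 41.0% (TBP-Y185C) and 40.3% (TBP-F207L) of all genes that were higher and the 35.2%, 38.8% and 38.8% that were lower. Genes for maltose, sucrose and polyol use are a typical subtelomeric set. Of 14 members 12 rose in mot1-14 and none fell, 11 rose and 2 fell in TBP-Y185C, and 11 rose and 1 fell in TBP-F207L, with medians of 0.29, 0.31 and 0.51. MAL31, the maltose permease, was at 0.61 ± 0.06, 0.69 ± 0.06 and 0.59 ± 0.06. MAL33, the activator of the MAL genes, was at 0.65 ± 0.04, 0.74 ± 0.04 and 0.58 ± 0.04. DSF1, a mannitol dehydrogenase, was at 0.86, 0.91 and 0.78. The near-identical maltase genes MAL12 and MAL32, named as copies, were at 0.22 and 0.16 (mot1-14), 0.25 and 0.22 (TBP-Y185C) and 0.68 and 0.56 (TBP-F207L). Their difference between TBP-F207L and mot1-14 passed (0.46 ± 0.05 and 0.40 ± 0.06). With median centring 10, 7 and 8 of the 14 rose.

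The 5 aryl-alcohol dehydrogenase genes of the AAD family split by locus. AAD4 (0.30, 0.43 and 0.16), AAD10 (0.42, 0.88 and 0.89) and AAD14 (0.42, 0.56 and 0.57) rose in all 3 mutants. AAD3 and AAD15 fell in all 3, so that 3 of 5 were higher beside 37.5% to 41.0% of all genes. The 6 stress protein genes split as well, with 4 rising and 2 falling in mot1-14. TBP-Y185C raised 3 and lowered 2, and TBP-F207L raised 3 and lowered 3, near the all-gene shares of 41.0% and 40.3% higher and 38.8% lower. SNO4 and HSP32, chaperones of the Hsp31 family, rose in all 3 mutants, SNO4 by 0.56, 1.04 and 0.60 and HSP32 by 0.49, 0.87 and 0.59.

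Of 10 plasma membrane transporter genes mot1-14 raised 5 and lowered 1. TBP-Y185C raised 3 and lowered 1, and TBP-F207L raised 1 and lowered 5. Of all genes 37.5%, 41.0% and 40.3% were higher and 35.2%, 38.8% and 38.8% lower. SGE1, a drug exporter, was at 0.25 and 0.22 on the mot1-14 arrays, 0.22 and 0.28 on those of TBP-Y185C and -0.17 and -0.22 on those of TBP-F207L, with no overlap between TBP-F207L and the others. MMP1, which takes up S-methylmethionine, fell by 0.47, 0.34 and 0.55 on the log2 scale. MHT1, which uses S-methylmethionine to make methionine and lies beside MMP1 on the left arm of XII, fell by 0.60, 0.52 and 0.38. Of 9 genes of vitamin, cofactor and amino acid metabolism mot1-14 raised 2 and lowered 3. TBP-Y185C raised 3 and lowered 5, and TBP-F207L raised 2 and lowered 5, beside the same shares of all genes.

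Of 5 flocculin and cell surface genes 3 rose in each mutant, beside 37.5% to 41.0% of all genes. FLO10, a flocculin, was at 0.23, 0.23 and 0.17, and YPS5, a shortened relative of the yapsin proteases, at 0.03, -0.05 and -0.11, passing only in TBP-F207L. Among the 4 transcription factor genes RDS1 was at -0.10, -0.47 and -0.39 and fell in the bypass strains, and TOG1 was at -0.08, -0.09 and -0.10 and passed in TBP-F207L alone. Enolase-related genes ERR1 and ERR2, near-identical copies with no mot1-14 value on the first array, were at 0.20 and 0.17 (TBP-Y185C) and 0.11 and 0.14 (TBP-F207L), and at -0.0289 and -0.0144 in TBP-Y185C with median centring. ERR3 was at 0.04, 0.00 and -0.05 and passed in no mutant.

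Most copies of a gene on different arms gave like values. The largest difference between copies in any mutant was 0.10 for DDI2 and DDI3, 0.13 for FEX1 and FEX2, 0.04 for IMA3 and IMA4, 0.03 for SOR1 and SOR2 and 0.12 for MAL12 and MAL32. GEX1 and GEX2 differed by up to 0.24. Such pairs share sequence, so that their likeness is no evidence of separate genes moving together.

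Genes for silencing and telomere proteins are mostly not chromosome-end genes. Of 63 on the array, 10 were higher and 32 lower in mot1-14, where 59 were tested. TBP-Y185C raised 16 and lowered 32, and TBP-F207L raised 24 and lowered 26. Of all genes 37.5%, 41.0% and 40.3% were higher and 35.2%, 38.8% and 38.8% lower, so that the TBP-F207L counts lie close to the array as a whole. RAP1, the telomere-binding protein, was at -0.87 ± 0.04 (mot1-14), -1.18 ± 0.04 (TBP-Y185C) and -0.79 ± 0.04 (TBP-F207L). SIR2, the silencing deacetylase, was at -0.53 ± 0.06, -0.79 ± 0.06 and -0.51 ± 0.06. SIR4 fell less, to -0.31, -0.20 and -0.14. SIR3 was higher than WT in TBP-Y185C (0.21) and TBP-F207L (0.40) and was not tested in mot1-14. HDA2, a subunit of the Hda1 deacetylase, and RFM1, which recruits Hst1, rose in all 3, HDA2 by 0.36, 0.72 and 0.82 and RFM1 by 0.36, 0.81 and 0.61. SIR1, the only member of this list among the chromosome-end genes, was at 0.02, 0.03 and 0.18 and passed in TBP-F207L. The part of these changes in the shift of the chromosome-end genes was not tested.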

How the data were processed

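The 6 two-colour arrays were scanned and quantified by the authors with Agilent Feature Extraction 7.5.1, per the file headers. The deposited files give a mean and a background intensity per spot and dye, a log10 ratio of red over green and an error-model p-value. The deposited series table holds log2 ratios of red over green, uncentred and not turned to mutant over WT, with array medians of -0.0258 to 0.0247.

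Background was removed with normexp (offset 50) and dye bias with within-array loess, both in limma 3.58.1 (R 4.3.3). The 544 control spots had weight 0, outlier spots were dropped and spots were averaged per probe. Of 6256 gene probes, 6232 passed the scanner's background test in 1 or both dyes on 2 or more arrays and were tested. One model held a dye intercept and 3 mutant terms, with 2 residual degrees of freedom, and p-values were adjusted by Benjamini-Hochberg over all genes tested. A comparison was tested only where all its arrays gave a value. WT is the common reference and counts once, which leaves out its own spread. Each of the 3 slides held 1 mutant, so slide and mutant cannot be told apart.

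Named are the 8 largest rises and falls per mutant, the 4 largest differences each way per direct comparison, up to 4 members per role list and outermost ORFs that passed in all 3 mutants. Other names, namely PAD1, MAL32, FEX2, ARR3, GEX1, SOR1, SOR2, IMA3, IMA4, YIR044C, YIR040C, HMLALPHA1, MAT and HMR copies, IMD genes, SIR3, SIR4 and single PAU and YRF1 genes, were chosen after their values were seen where that rule does not reach them. The members and lists were chosen with earlier results of these data known. Names come from the array file and the RefSeq R64 gene table, which held 184 of 220 members. No genome sequence was used here.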

Additional observations from a re-analysis of the deposited data

Results flagged for a closer look

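Some chromosome-end genes passed against WT in opposite directions in a pair of mutants, and the direct difference between those mutants passed as well. Listed are those with a difference of at least 0.5 on the log2 scale. How often this occurs over all genes was not counted. Both mutants of a pair share WT.

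Between TBP-Y185C and mot1-14, DLD3 differed by 0.96 and YBL112C by -0.60. Between TBP-F207L and mot1-14, DLD3 differed by 1.08, YIR043C by -2.50 and YIR044C by -1.04. PAU10 differed by -0.51, PAU20 by -0.57 and HSP33, an Hsp31 family chaperone, by -0.60 in that comparison. Between TBP-F207L and TBP-Y185C, YRF1-2 differed by 0.55, YRF1-3 by 0.57, YRF1-6 by 0.54 and YRF1-7 by 0.55. YIL177C differed by 0.56, YJL225C by 0.56 and YPR204W by 0.53 there. All 4 of these YRF1 genes, YIL177C and YPR204W were not lower than WT at the threshold in TBP-Y185C with median centring, nor without the second TBP-Y185C array. Of the 15 listed differences, 5 still had opposite calls with median centring and 7 without the dye term, where 10 of the differences themselves passed. DLD3, YIR043C, YIR044C and YJL225C kept opposite calls under all 14 alternatives, but without the dye term the YJL225C difference did not pass. YIR043C and YIR044C lie side by side, the YRF1 genes are near-identical, and probes of YIL177C, YJL225C and YPR204W may also read shared subtelomeric sequence. These are thus fewer separate signals than their number.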

How the results depend on the processing

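The excess of higher over lower members in mot1-14 was found under every alternative run. With 4 ORFs per arm, members higher and lower than WT numbered 49 and 5 (mot1-14), 41 and 34 (TBP-Y185C) and 43 and 27 (TBP-F207L). Those higher and lower than mot1-14 were 6 and 28 (TBP-Y185C) and 22 and 38 (TBP-F207L), 24 were lower in TBP-F207L than in TBP-Y185C, and the TBP-Y185C median was 0.0014. With 12 ORFs, 56 were lower in mot1-14, 143 higher and 101 lower (TBP-Y185C), and 145 and 102 (TBP-F207L). Against mot1-14 52 and 71 were then higher in TBP-Y185C and TBP-F207L, and 47 higher in TBP-F207L than in TBP-Y185C. Without the dye term 33 were lower in TBP-Y185C and 41 in TBP-F207L. Direct differences were then 8 higher and 21 lower for TBP-Y185C and 20 and 47 for TBP-F207L against mot1-14, and 3 and 2 between the bypass strains. By the deposited p-values under 0.01 on both arrays, chosen after seeing the data, higher and lower members were 39 and 12, 34 and 19, and 20 and 11.

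Members lower in TBP-F207L than in TBP-Y185C numbered 32 with deposited log ratios, 32 with median centring, 32 with offset 0 and 33 with the series table. Outside multicopy families 20 were higher. The mot1-14 median was 0.12 with both channels above background, 0.15 with deposited log ratios, 0.12 without background correction, 0.14 with offset 0, 0.16 with the series table, 0.12 with families kept and 0.14 in the reference table. The TBP-Y185C median was 0.0644 (both channels above background), 0.0607 (deposited log ratios, and series table), -0.0662 (median centring), 0.0569 (offset 0), 0.0542 (families kept), 0.0951 (reference table), 0.00171 (outside multicopy families) and -0.00297 without YRF1 and PAU genes or with families also dropped by current symbol. The TBP-F207L median was 0.0536 with deposited log ratios, 0.0521 with offset 0, -0.0240 with median centring and 0.0889 in the reference table. The cause of these shifts was not tested.

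Leaving out 1 array at a time gave in mot1-14 74 to 107 higher and 17 to 29 lower (median 0.0714 to 0.129), 74 to 97 and 41 to 67 in TBP-Y185C (median 0.0153 to 0.0331), and 77 to 89 and 48 to 61 in TBP-F207L (median 0.0140 to 0.0445). It gave 11 to 28 higher and 35 to 78 lower in TBP-Y185C than in mot1-14, 29 to 42 and 62 to 78 in TBP-F207L than in mot1-14, and 24 to 39 and 16 to 57 in TBP-F207L than in TBP-Y185C. Of 154 changes of named genes under 14 settings, 7 had no value with both channels above background. Of the rest, 2029 values were unchanged in call, 117 lost it and 3 reversed, all in TBP-Y185C with median centring, namely GEX2 at -0.10, ERR1 at -0.0289 and the ERR2 change in TBP-Y185C at -0.0144. No paired analysis was possible because the labels number no replicates and the 2 arrays of a mutant differ by dye orientation. The slide block was not run, since each slide held 1 mutant. The 2 arrays per mutant limit the precision, and 119 of 219 members lie among the dimmest genes.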
